A study of Mus musculus with 6 samples.

Results

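The MHC class I presentation genes described here are H2-K1, H2-D1, H2-T23, B2m, Tap1, Tap2 and Tapbp, chosen by symbol as 7 of the 29955 rows of a gene expression table for mouse embryonic fibroblasts (MEFs). RNA-seq libraries were made from 3 samples of Rnf40+/+ MEFs and 3 samples of Rnf40-/- MEFs, all at passage 3. The study crossed mice with LoxP sites around exons 3 and 4 of Rnf40 to a line with a tamoxifen-inducible Cre recombinase under the ubiquitous Rosa26 promoter (Rosa26-CreERT2). For the knockout, MEFs grew for 5 days in 250 nM 4-hydroxytamoxifen (4-OHT) and for 3 further days without it. Whether the Rnf40+/+ MEFs also received 4-OHT is not given in the sources used here, so the deletion and the treatment cannot be told apart. No label ties the samples to separate embryos, and p-values measure only the spread between these samples.

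RNF40 is an E3 ubiquitin ligase that, with RNF20, attaches a single ubiquitin to histone H2B. MHC class I molecules display peptides from inside a cell to T cells and natural killer cells. Each consists of a heavy chain, encoded by genes such as H2-K1, H2-D1 and H2-T23, and the light chain beta-2-microglobulin, encoded by B2m. The proteasome and peptidases cut proteins into peptides, the transporter formed by TAP1 and TAP2 carries them into the endoplasmic reticulum, and tapasin, the product of Tapbp, holds the empty class I molecule at the transporter. Fibroblasts express the pathway at a basal level and raise it in response to interferon.

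The 7 genes were all expressed, with at least 395 reads for each in every library, and all passed the filter on low counts. H2-D1, Tap1 and Tapbp rose in Rnf40-/- MEFs and B2m fell, where 47.4% of all genes tested were called in either direction. The call of Tapbp was lost without Rnf40+/+ replicate 1, Rnf40-/- replicate 1 or Rnf40-/- replicate 3. That of B2m was lost with scaling by all reads on genes. H2-K1, H2-T23 and Tap2 did not pass the test. The largest difference was that of H2-D1, at 1.75-fold. The ratio of Tap1 to Tap2 counts, which was not tested, was higher in every Rnf40-/- library than in any Rnf40+/+ library, as were Tap1 counts alone. Of all genes tested, 56.5% did not overlap between the genotypes, and no such share was computed for ratios.

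The values are normalized counts, in which the reads of a gene were divided by the size factor of the library. The libraries held 17053436 to 26344170 reads on genes, and a gene with 3 reads had a normalized count of 2.40 to 3.58. For the tests, limma was fitted to log2(normalized count + 1) of 16378 genes with Benjamini-Hochberg adjustment, and log2 fold changes are Rnf40-/- against Rnf40+/+. Rnf40 had normalized counts of 1278, 1195 and 1096 in Rnf40+/+ libraries and 439, 519 and 487 in Rnf40-/- libraries, which is 40.5% of the Rnf40+/+ mean. The row counts reads over the whole gene and not only over the LoxP-flanked exons. The 12 fibroblast markers summed to 681113 to 752513 normalized counts in Rnf40+/+ libraries and 407754 to 410764 in Rnf40-/- libraries, and 10 of them fell, Col1a2 and Thy1 the most. The 12 tested macrophage markers of 13 in the table also differed, as 5 fell and 2 rose, and the 13 summed to 6503 to 11160 and 4132 to 4565 normalized counts. Of 6 lymphocyte markers, 3 had no read in any library and none was tested. Of 5 tested endothelial markers 3 rose and 1 fell (sums of 139 to 279 and 225 to 315 normalized counts), and none of 3 tested epithelial markers was called. Among all genes tested, 23.3% were called higher and 24.1% lower, and these shares apply beside the counts of every list in this report. The part of other cell types in the results below was not tested. In bulk RNA, fewer cells of a type and less RNA per cell cannot be told apart.

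Rnf40+/+ replicate 1 stood apart from the other libraries in some genes of the same family and in many genes outside it. In this library 72 genes were at least 4 times higher than the highest of the other 5 libraries with 5 added, against 0 to 5 such genes in any other library. None of the 7 genes was among the 72, but 8 other rows of the class I heavy chain list were. H2-B2 and H2-T3-like, which that list does not hold, were also among them, at 1115 and 192 normalized counts against at most 69.3 and 8.0 elsewhere. These 72 genes held 0.0786% of the library's normalized counts, and the male-specific genes Ddx3y and Eif2s3y were also among them, at 81.2 and 39.4 normalized counts against at most 7.1 and 2.0 elsewhere. The 7 genes are therefore given with and without this library, and so are some of the other genes whose call or direction changed. Without it, 10 fibroblast markers were called lower, not all of them the same genes. Of the macrophage markers 6 were lower and 2 higher, and of the endothelial markers 4 were higher and 1 lower. Over all genes, however, Rnf40+/+ replicate 3 differed most from the other libraries of its genotype. The chi-square per gene of the read counts was 28.8 against replicate 1 and 25.9 against replicate 2. Between Rnf40+/+ replicates 1 and 2 it was 8.35. This measure also grows with read depth, which was highest in Rnf40+/+ replicate 3.

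The heavy chain genes resemble each other in sequence, and the printed stretches show how closely. The MHC haplotype of the MEFs is not given in the sources used here, and all sequences are those of the mm9 reference (C57BL/6J), so identities and shared windows hold for the MEFs only as far as their alleles match it. In mm9, H2-K1 (ENSMUSG00000061232) is at chr17:34132962-34137278 (minus strand), H2-D1 (ENSMUSG00000073411) at chr17:35399675-35404444 (plus strand) and H2-T23 (ENSMUSG00000067212) at chr17:36166718-36169800 (minus strand). Their coding sequences were 91.5% identical between H2-K1 and H2-D1, 82.1% between H2-K1 and H2-T23 and 81.2% between H2-D1 and H2-T23. The stretch shown is bases 61 to 180 of coding exon 2, at chr17:34136769-34136888 for H2-K1, chr17:35400384-35400503 for H2-D1 and chr17:36169188-36169307 for H2-T23. Exon 2 encodes the first domain of the peptide groove, where class I genes differ most. Capitals in H2-K1 and H2-D1 mark the 9 bases that differ between them, and capitals in H2-T23 mark the 14 bases that differ from H2-K1.
H2-K1: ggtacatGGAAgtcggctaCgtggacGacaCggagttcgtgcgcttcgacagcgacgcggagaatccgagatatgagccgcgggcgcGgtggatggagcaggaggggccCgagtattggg
H2-D1: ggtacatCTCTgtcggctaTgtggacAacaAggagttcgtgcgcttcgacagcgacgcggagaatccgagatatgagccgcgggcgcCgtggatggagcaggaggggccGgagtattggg
H2-T23: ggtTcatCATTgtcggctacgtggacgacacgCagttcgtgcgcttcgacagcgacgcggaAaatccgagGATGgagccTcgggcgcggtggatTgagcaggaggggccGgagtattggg

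Over the 270 bases of exon 2, H2-D1 differed from H2-K1 at 24 bases and H2-T23 at 36. The longest run shared by H2-K1 and H2-D1 was 91 bases, at bases 738 to 828 of the H2-K1 coding sequence. This run is shown because no read that lies within it can be assigned to 1 of the genes.
H2-K1 and H2-D1: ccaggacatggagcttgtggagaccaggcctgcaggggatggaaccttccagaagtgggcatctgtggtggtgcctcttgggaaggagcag

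The share of a transcript that could yield such reads was measured with windows of 51 nucleotides, since the length of the RNA-seq reads is not given in the sources used here. A window counted as shared if it matched a protein-coding transcript of another gene exactly. In H2-K1, 8.30% of windows occurred in a transcript of another gene, mostly H2-D1 (6.56%). In H2-D1 the share was 16.3%, with H2-Q2 as the leading partner (8.61%), and in H2-T23 it was 14.4%. B2m shared no window. The transporter genes Tap1 and Tap2 shared 0.827% and 0.708% of their windows, with each other, although their coding sequences were 58.1% identical, and Tapbp shared 0.738%. Across 22574 genes, 72.9% shared no window, so the heavy chain genes had more shared sequence than most genes. Most of their windows were found in no coding transcript of another gene. How the authors' mapping treated a read with several equal matches is not given, and reads of H2-K1, H2-D1 and H2-T23 could be split or lost. The shares do not bound that extent, as near matches and rows without a coding transcript, such as H2-K2, were not compared.

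Upstream of their RefSeq starts (promoter table of GRCm38.p6, with positions in mm9 from exact matches) 6 of the 7 genes had a promoter entry, and Tap2 had none. Letters of known class I control elements were searched on both strands in the 250 bases before each start. The kappaB element was taken as the bases GGGGATTCCCC of the H2-K1 promoter, so its match in H2-K1 was given in advance. Among the other members it was found in H2-D1 alone, and 0.0222% of 27025 promoters held it. The letters GAANNGAAA, part of an interferon-stimulated response element, followed it in both genes and were in 6.34% of promoters. The full pair of GAAA letters around 2 bases of any kind (GAAANNGAAA), which does not overlap the shorter pattern here, was found in H2-T23 and B2m and in 3.04% of promoters. The searched kappaB and interferon letters were not in the windows of Tap1 and Tapbp. The stretches are shown so that the upstream letters of the heavy and light chain genes can be compared. They are chr17:34137374-34137403 (minus strand) for H2-K1, chr17:35399868-35399897 (plus strand) for H2-D1, chr17:36169751-36169780 (minus strand) for H2-T23 and chr2:121973274-121973303 (plus strand) for B2m. Capitals mark the kappaB and interferon matches on either strand.
H2-K1: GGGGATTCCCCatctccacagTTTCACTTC
H2-D1: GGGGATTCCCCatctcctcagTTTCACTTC
H2-T23: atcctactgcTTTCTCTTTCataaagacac
B2m: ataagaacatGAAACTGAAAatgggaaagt

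These 30 bases differed at 1 base between H2-K1 and H2-D1. All 30 bases of the H2-D1 and H2-T23 stretches also lie in an annotated exon of GENCODE, and none of the other two do. A match of letters is a description of the reference sequence, and binding of a factor was not measured here.

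Of the 7 genes, 3 were called higher and 1 lower at an adjusted p under 0.05. Among all genes tested, 23.3% were called higher, 24.1% lower and 47.4% in either direction. With scaling by all reads on genes, 5197 genes were higher and 2955 lower, in place of 3809 and 3955. The genotypes did not overlap for 4 of the 7 genes, with Rnf40-/- above for 3 and below for 1. Of all genes tested, 27.8% lay above without overlap, 28.7% below and 56.5% either way. These counts are close to the background. Their median log2 fold change was 0.25, beside -0.0035 over all genes tested. No member had an absolute log2 fold change of 1 or more.

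H2-D1 encodes a classical heavy chain that presents peptides to cytotoxic T cells. Normalized counts of H2-D1 were 2196, 2084 and 2216 in Rnf40+/+ libraries and 3851, 3815 and 3714 in Rnf40-/- libraries. All 3 Rnf40-/- libraries lay far above all 3 Rnf40+/+ libraries, and the spread within either genotype was small. H2-D1 rose by a log2 fold change of 0.81 (SE 0.06, limma adjusted p = 7.80e-07), and it was 0.82 without Rnf40+/+ replicate 1.

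H2-K1 encodes the other classical heavy chain. Its normalized counts were 1432, 811 and 1105 in Rnf40+/+ libraries and 1353, 1262 and 1397 in Rnf40-/- libraries. The genotypes overlapped, since Rnf40+/+ replicate 1 was the highest of all 6 libraries and Rnf40+/+ replicate 2 the lowest. The log2 fold change was 0.30 (SE 0.15, 95% interval -0.037 to 0.63, limma adjusted p = 0.133). Without Rnf40+/+ replicate 1 it was 0.50 (SE 0.11, limma adjusted p = 0.00305), and without Rnf40+/+ replicate 2 it was 0.087 (limma adjusted p = 0.553). With all 6 libraries it was also called with scaling by all reads on genes (0.42, limma adjusted p = 0.0472).

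H2-T23 encodes the heavy chain of Qa-1, a class I molecule recognised by natural killer cell receptors. Normalized counts of H2-T23 were 557, 403 and 407 in Rnf40+/+ libraries and 451, 487 and 482 in Rnf40-/- libraries. Rnf40+/+ replicate 1 was again the highest library, whereas the other two Rnf40+/+ libraries were below all Rnf40-/- libraries. The log2 fold change was 0.07 (SE 0.12, 95% interval -0.20 to 0.34, limma adjusted p = 0.659), and without Rnf40+/+ replicate 1 it was 0.22 (limma adjusted p = 0.0828). Without Rnf40+/+ replicate 2 or replicate 3 it turned to -0.0087 and -0.00073.

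B2m (ENSMUSG00000060802), which encodes the light chain shared by these molecules, lies on the plus strand of chromosome 2 at chr2:121973422-121978819, outside the MHC. Normalized counts of B2m were 15301, 15449 and 14445 in Rnf40+/+ libraries and 12501, 12876 and 12625 in Rnf40-/- libraries. Each Rnf40-/- library was below each Rnf40+/+ library, and the Rnf40-/- mean was 84.1% of the Rnf40+/+ mean. The log2 fold change was -0.25 (SE 0.06, limma adjusted p = 0.00634) and -0.24 without Rnf40+/+ replicate 1. With scaling by all reads on genes, the median of all genes moved to 0.12 and the call of B2m was lost (log2 fold change -0.12, limma adjusted p = 0.112).

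**Figure D1:**
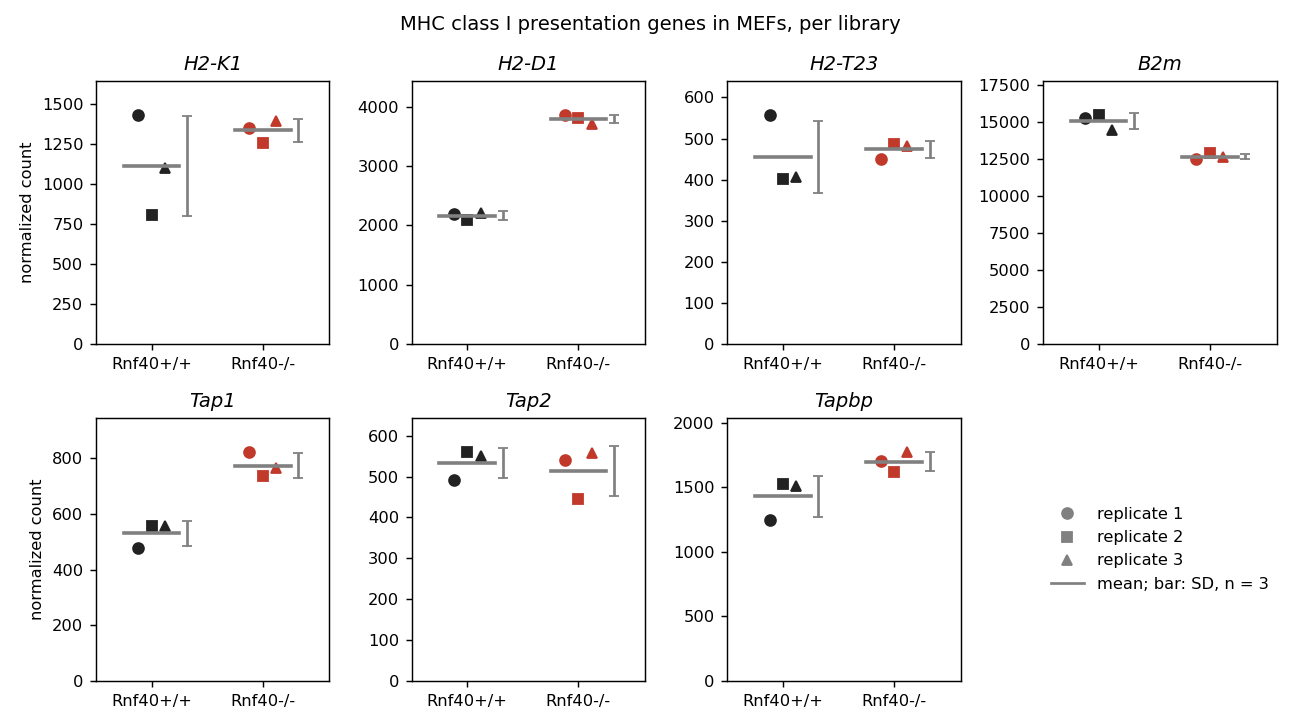
Normalized counts (linear axes from 0) of the 7 genes in each library, with symbols for the replicate numbers and grey lines and bars for the mean and SD of 3 libraries per genotype. The genotypes do not overlap for H2-D1, B2m, Tap1 and Tapbp, and Rnf40+/+ replicate 1 is the highest library for H2-K1 and H2-T23.

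Tap1 (ENSMUSG00000037321), at chr17:34324498-34334170 on the plus strand, encodes a subunit of the peptide transporter. Its normalized counts were 478, 557 and 557 in Rnf40+/+ libraries and 822, 735 and 764 in Rnf40-/- libraries. The genotypes did not overlap. Tap1 rose by a log2 fold change of 0.55 (SE 0.09, limma adjusted p = 0.000371), which is 1.46-fold, and without Rnf40+/+ replicate 1 it was 0.47 (limma adjusted p = 0.000898).

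Tap2 (ENSMUSG00000024339), at chr17:34340472-34353266 on the plus strand, encodes the partner subunit. Normalized counts of Tap2 were 492, 560 and 549 in Rnf40+/+ libraries and 539, 445 and 558 in Rnf40-/- libraries. The ranges of the genotypes overlapped, and Rnf40-/- replicate 2 was the lowest library. The log2 fold change was -0.06 (SE 0.10, 95% interval -0.29 to 0.17, limma adjusted p = 0.669), and without Rnf40+/+ replicate 1 it was -0.12 (limma adjusted p = 0.424). It turned to 0.07 with scaling by all reads on genes and to 0.04 without Rnf40-/- replicate 2.

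Tapbp (ENSMUSG00000024308), at chr17:34052844-34066235 on the plus strand, encodes tapasin. Its normalized counts were 1248, 1529 and 1512 in Rnf40+/+ libraries and 1705, 1621 and 1773 in Rnf40-/- libraries. The genotypes did not overlap, but Rnf40+/+ replicate 1 was well below the other libraries. Tapbp rose by a log2 fold change of 0.25 (SE 0.09, limma adjusted p = 0.0273). The call was lost without Rnf40+/+ replicate 1 (log2 fold change 0.16, limma adjusted p = 0.107), without Rnf40-/- replicate 1 (0.25, limma adjusted p = 0.0826) and without Rnf40-/- replicate 3 (0.22, limma adjusted p = 0.0999).

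Ratios between members within a library do not depend on the scaling between libraries, and they are given without a test. The log2 ratio of Tap1 to Tap2 counts was -0.04, -0.01 and 0.02 in Rnf40+/+ libraries and 0.61, 0.72 and 0.45 in Rnf40-/- libraries. Every Rnf40-/- library thus held more Tap1 relative to Tap2. The means differed by 0.60, beside a log2 fold change of 0.55 for Tap1 alone. The log2 ratio of H2-D1 to B2m counts was -2.80 ± 0.09 (SD, n = 3) in Rnf40+/+ and -1.74 ± 0.04 (SD, n = 3) in Rnf40-/- libraries. For H2-D1 to H2-K1 the log2 ratio was 0.99 ± 0.37 (SD, n = 3) and 1.50 ± 0.09 (SD, n = 3). The wide spread in Rnf40+/+ libraries was that of H2-K1, with 0.62 in replicate 1 and 1.36 in replicate 2.

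To compare levels between genes, normalized counts were divided by the length in kilobases of the longest annotated transcript. B2m was the most abundant of the 7 genes, at 17518 ± 630 normalized counts per kilobase (SD, n = 3) in Rnf40+/+ and 14730 ± 222 (SD, n = 3) in Rnf40-/- MEFs. H2-D1 followed at 1030 ± 33.8 and 1805 ± 33.9 normalized counts per kilobase. The next levels were those of H2-K1 (595 ± 166 and 714 ± 36.9) and Tapbp (494 ± 54.4 and 587 ± 26.4), whose ranges overlapped in Rnf40+/+ MEFs. H2-T23 (172 ± 33.1 and 179 ± 7.54) and Tap2 (155 ± 10.61 and 149 ± 17.7) also overlapped in Rnf40+/+ MEFs. Tap1 had the lowest level in Rnf40+/+ MEFs, at 136 ± 11.7 normalized counts per kilobase, and with 198 ± 11.3 it stood above H2-T23 and Tap2 in Rnf40-/- MEFs. With the length of all exons joined in place of the longest transcript, H2-K1 and Tapbp changed places in both genotypes and Tap1 was below H2-T23 in Rnf40-/- MEFs.

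The other class I heavy chain genes were next examined, since they share sequence with the members and were high in Rnf40+/+ replicate 1. Of 26 such rows, 16 were tested, none was called higher and only H2-M9 was lower (log2 fold change -1.95, limma adjusted p = 0.0233), from 20.3, 18.4 and 14.4 to 3.1, 1.0 and 12.3 normalized counts. Without Rnf40+/+ replicate 1, H2-M9 no longer passed at nearly the same log2 fold change (-1.85, limma adjusted p = 0.0556), nor without Rnf40+/+ replicate 2, Rnf40-/- replicate 1 or Rnf40-/- replicate 2, and H2-Q6 was the gene called, as higher (log2 fold change 0.71, limma adjusted p = 0.0174). Of 25 rows with any read, 21 were highest in Rnf40+/+ replicate 1. For H2-M3, which presents formylated peptides, the normalized counts were 850, 99.9 and 61.5 in Rnf40+/+ libraries and 75.5, 72.0 and 49.1 in Rnf40-/- libraries. For H2-Q10 they were 244, 21.4 and 14.4 against 16.3, 19.8 and 15.1. By contrast H2-T22, the row with the highest Rnf40-/- count, had 717, 699 and 716 against 688, 614 and 712 normalized counts.

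**Figure D2:**
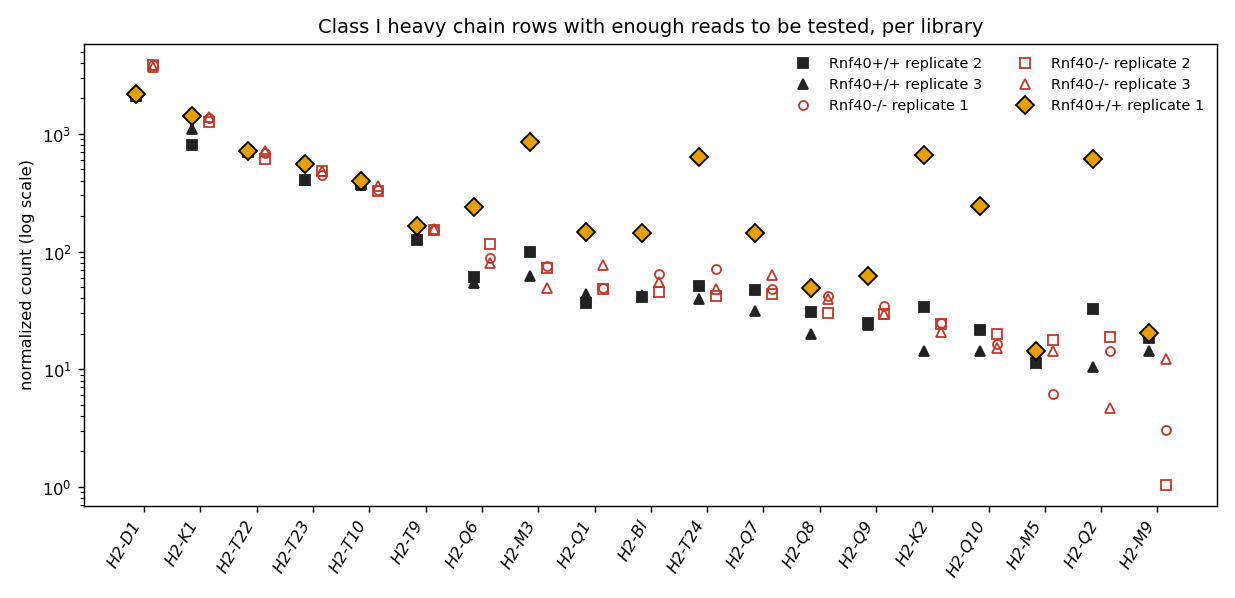
Normalized counts (log axis) of the 19 tested class I heavy chain rows in each library, with Rnf40+/+ replicate 1 as orange diamonds, the other Rnf40+/+ libraries in black and Rnf40-/- libraries in red. Replicate 1 of Rnf40+/+ lies above the other 5 libraries for rows such as H2-M3, H2-T24, H2-K2 and H2-Q2, and among them for H2-D1.

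Summed over H2-K1, H2-D1 and H2-T23, normalized counts were 4185, 3298 and 3729 in Rnf40+/+ libraries and 5655, 5564 and 5593 in Rnf40-/- libraries, without overlap. The other 26 rows summed to 5354, 1721 and 1611 in Rnf40+/+ libraries and 1719, 1613 and 1758 in Rnf40-/- libraries. All 29 listed rows together summed to 9538, 5019 and 5339 against 7374, 7177 and 7351, so that Rnf40+/+ replicate 1 was the highest library and the other Rnf40+/+ libraries were the lowest. The ratio of Rnf40+/+ replicate 1 to the mean of replicates 2 and 3 was 1.49 for H2-K1, 1.02 for H2-D1 and 1.37 for H2-T23. For H2-M3, with 0.504% of its windows shared, the ratio had a log2 of 3.38, for H2-Q10, with 13.4% shared, 3.69, for H2-M10.3, with 12.2% shared, 5.47, and for H2-T9, with 98.4% shared, 0.33. The rows with the largest shares, H2-T9, H2-T22 (43.4%) and H2-T10 (39.5%), had ratios of 1.26, 1.01 and 1.07 before the log2. H2-Q7, with 26.6% shared, had a ratio of 3.70. Whether reads moved between rows was not tested.

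**Figure D3:**
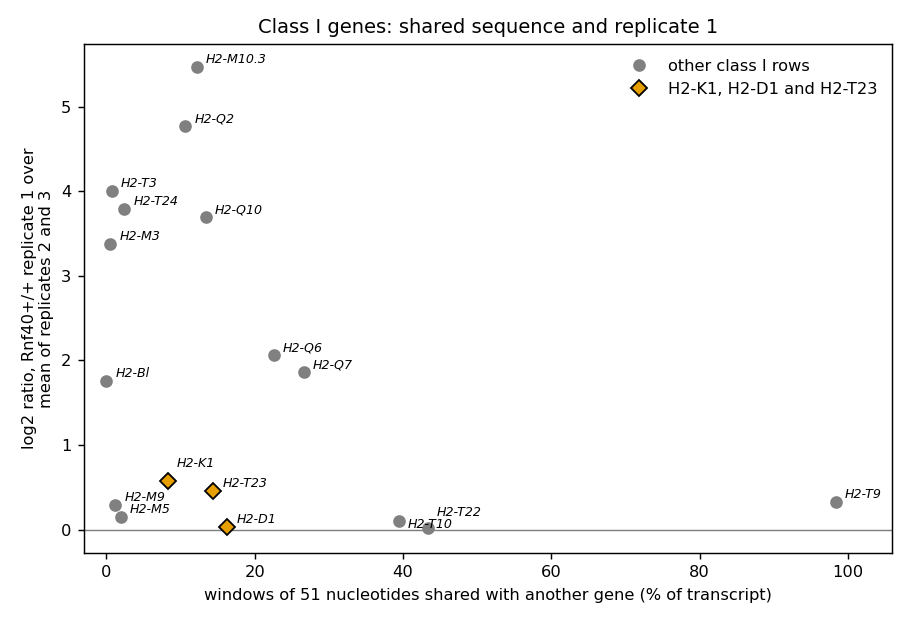
Share of windows of 51 nucleotides that occur in a coding transcript of another gene (x axis, % of a transcript) for class I rows with a coding transcript. The y axis is the log2 ratio of Rnf40+/+ replicate 1 to the mean of replicates 2 and 3. H2-K1, H2-D1 and H2-T23 (orange) had ratios of 1.49, 1.02 and 1.37, and the rows furthest to the right, H2-T9, H2-T10 and H2-T22, had ratios of 1.26, 1.07 and 1.01.

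Partners of TAP and tapasin in peptide loading were tested with the same fit. Of 5 genes, 2 were called higher and 1 lower, beside 23.3% and 24.1% of all genes tested. The same shares stand beside the counts of the lists that follow. Canx, which encodes the chaperone calnexin, rose (log2 fold change 0.46, limma adjusted p = 0.000333), and so did Pdia3, the disulfide isomerase ERp57 of the loading complex (0.55, limma adjusted p = 7.35e-05). Calr, which encodes calreticulin, had a log2 fold change of 0.11 (limma adjusted p = 0.314), and Tapbpl, the tapasin-related TAPBPR, 0.15 (limma adjusted p = 0.393). Erap1, the peptidase that trims peptides in the endoplasmic reticulum, fell (-0.33, limma adjusted p = 0.0205), a call that was lost without Rnf40+/+ replicate 1 (-0.28, limma adjusted p = 0.0695), Rnf40-/- replicate 2 or Rnf40-/- replicate 3, and with scaling by all reads on genes.

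The immunoproteasome and its activator PA28 supply peptides to TAP. None of these 5 genes was called higher and 2 were lower, Psme1 and Psme2, which encode PA28. Psme2 fell from 947, 846 and 1031 to 689, 668 and 775 normalized counts (log2 fold change -0.40, limma adjusted p = 0.00347). Psme1 fell by 0.25 on the log2 scale (limma adjusted p = 0.0422), but the call was lost without Rnf40+/+ replicate 1 (limma adjusted p = 0.112) and held in 1 of 6 fits with a library left out, that without Rnf40+/+ replicate 2. The inducible catalytic subunits had low counts that varied in Rnf40+/+ libraries. Psmb8 had 100.3, 25.5 and 100.6 normalized counts in Rnf40+/+ libraries and 35.7, 25.1 and 34.0 in Rnf40-/- libraries (log2 fold change -1.01, limma adjusted p = 0.0782). Psmb10 and Psmb9 had log2 fold changes of -0.54 (limma adjusted p = 0.0752) and -0.31 (limma adjusted p = 0.692), and Psmb9 turned to 0.42 without Rnf40+/+ replicate 1 (limma adjusted p = 0.517).

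Psmb9 and Tap1 lie head to head, with RefSeq starts 226 nucleotides apart. In Rnf40+/+ libraries Psmb9 had 59.7, 9.2 and 16.8 normalized counts and in Rnf40-/- libraries 23.5, 9.4 and 21.7, with no separation of the genotypes of the kind seen for Tap1. The standard catalytic subunits, which the inducible ones replace, showed a called rise only for Psmb7 (log2 fold change 0.18, limma adjusted p = 0.0312), which was lost without Rnf40+/+ replicate 2, Rnf40-/- replicate 1 or Rnf40-/- replicate 3. The values were -0.09 for Psmb5 (limma adjusted p = 0.502) and 0.09 for Psmb6 (limma adjusted p = 0.406). Of 4 cytosolic peptidases, Npepps rose (0.23) and Lap3 (-0.79) and Blmh (-0.41) fell. The call of Npepps was lost without Rnf40+/+ replicate 3 or any 1 of the Rnf40-/- libraries, and that of Blmh without Rnf40-/- replicate 1 and with scaling by all reads on genes.

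**Figure D4:**
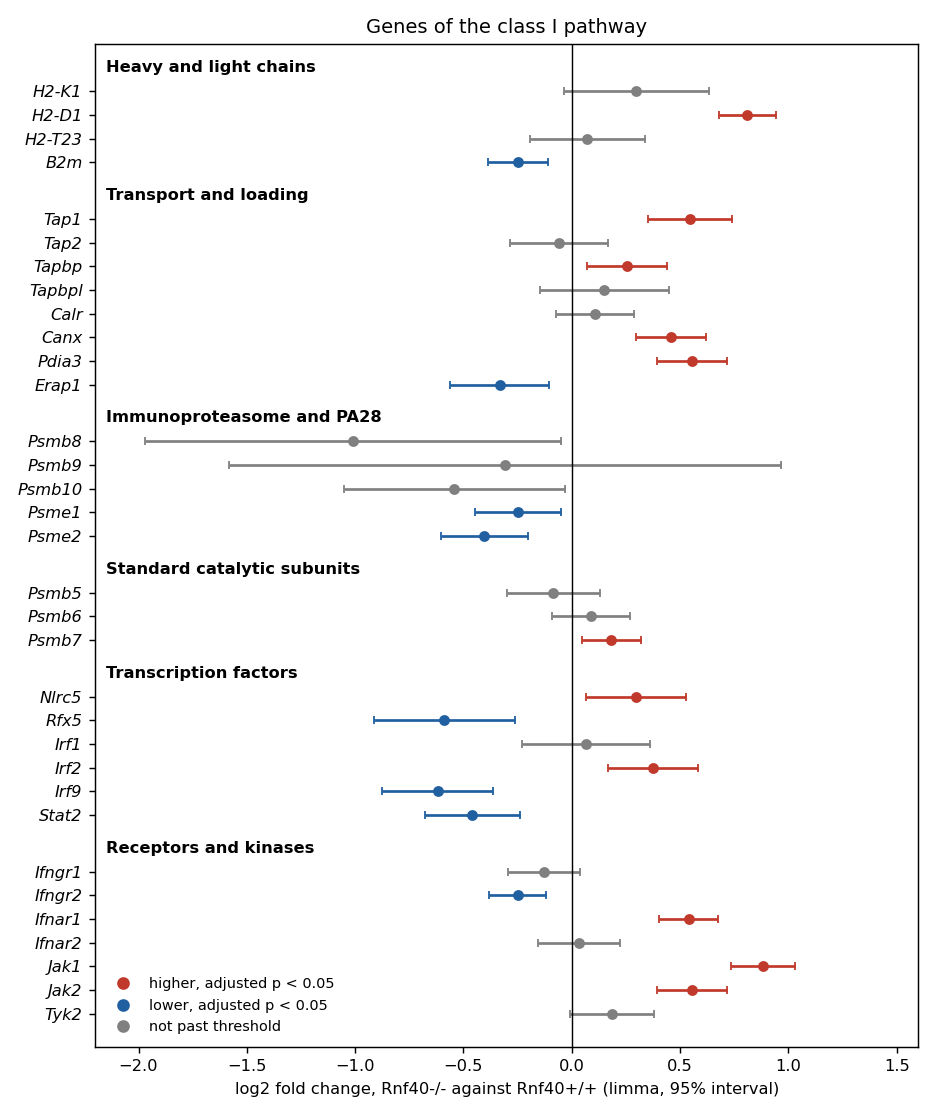
Log2 fold change of Rnf40-/- against Rnf40+/+ MEFs with its 95% interval (limma, n = 3 per genotype) for the members and other genes of the class I pathway, grouped by role. Red and blue mark genes called higher and lower, and grey marks genes that did not pass, with both colours present in most groups.

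Transcription factors of class I genes were called in both directions, with 4 of 16 tested genes higher and 5 lower. Among all genes tested, 23.3% were called higher and 24.1% lower, so both directions were common. Nlrc5, the class I transactivator, had 211, 225 and 216 normalized counts in Rnf40+/+ libraries and 271, 265 and 266 in Rnf40-/- libraries. It rose (log2 fold change 0.30, limma adjusted p = 0.0355), although the call was lost without Rnf40+/+ replicate 1 (0.28, limma adjusted p = 0.0766). The call held in 1 of 6 fits with a library left out, that without Rnf40+/+ replicate 2. With all 6 libraries it was also lost with the Wald test of DESeq2 and with a block for the replicate number. Rfx5, the DNA-binding subunit of the RFX complex that NLRC5 works with, fell (-0.59, limma adjusted p = 0.00638). Irf2 rose (0.37, limma adjusted p = 0.00621), and Irf1, an activator of class I genes, had 0.07 (limma adjusted p = 0.722) and turned to -0.05 without Rnf40+/+ replicate 1. Stat2 (-0.46, limma adjusted p = 0.00263) and Irf9 (-0.62, limma adjusted p = 0.000992), which act together in the response to type I interferon, fell. The subunits of the CCAAT-binding factor NF-Y were called in opposite directions, with Nfya (0.36) and Nfyb (0.28) higher and Nfyc (-0.41) lower, and the call of Nfyb was lost without Rnf40+/+ replicate 1 (limma adjusted p = 0.110) or any 1 of the Rnf40-/- libraries.

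Of the interferon ligands, Ifng had no read in any library, and Ifnb1 had a normalized count of 2.4 in Rnf40+/+ replicate 1 and none elsewhere. Among 7 tested receptor and kinase genes, 3 were higher and 1 lower. Jak1 rose from 4345, 4928 and 4302 to 8165, 8472 and 8325 normalized counts (log2 fold change 0.88, limma adjusted p = 1.07e-06). Jak2 (0.56) and the receptor gene Ifnar1 (0.54) also rose, and Ifngr2 fell (-0.25, limma adjusted p = 0.00505), a call that was lost with scaling by all reads on genes.

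Class I molecules outside the MHC and class II genes are given for comparison. Of 6 tested class I-like genes, Procr, an endothelial receptor with a class I fold, rose (log2 fold change 0.50, limma adjusted p = 0.000261). Fcgrt, which encodes the heavy chain of the neonatal Fc receptor and also pairs with B2m, fell (-1.15, limma adjusted p = 0.000298), as did the lipid-presenting Cd1d1 (-0.60, limma adjusted p = 0.0411). Cd1d1 was called in 2 of 6 fits with a library left out, those without Rnf40+/+ replicate 1 and without Rnf40-/- replicate 2, and in 6 of the 10 other alternatives. Of 6 tested class II genes, 1 was higher and 2 were lower. H2-Aa had 6.0, 2.0 and 4.0 normalized counts in Rnf40+/+ libraries and 77.5, 74.1 and 69.9 in Rnf40-/- libraries, while its partner chain H2-Ab1 had 34.6, 20.4 and 16.8 against 19.4, 21.9 and 13.2. H2-DMb1 (-1.82) and H2-DMb2 (-1.41), which encode chains of the class II peptide exchange factor, fell. H2-DMb2 was called in 2 of 6 fits with a library left out, those without Rnf40+/+ replicate 1 and without Rnf40-/- replicate 1.

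Genes with the pattern most like that of a member were sought among 11548 genes with a mean of at least 100, by the root mean square distance of their centred log2 values over the 6 libraries. For H2-K1 they were Lypla2 (0.11), 2300009A05Rik (0.11) and Ap4m1 (0.12). For B2m they were D6Wsu116e (0.015), Rnf6 (0.022) and Sap130 (0.024), and for Tap1 Obfc2b (0.018), Pik3c3 (0.041) and AK171960 (0.051). None of these 9 genes belongs to the lists of the class I pathway used here. Those lists hold only a small part of the 11548 genes searched, so this count says nothing about the pathway.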

How the data were processed

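Reads from total RNA, prepared with a strand-specific kit, were mapped by the authors to the mouse reference transcriptome (mm9), and the deposited signal is the count of a gene divided by a DESeq size factor. Their processing notes name Bowtie2 2.1.0 and DESeq 1.14.0. The counting tool is not given in the sources used here. In each library 100% of values were whole multiples of 1 read (tolerance 0.001), which gave back the reads. Genes were filtered with filterByExpr of edgeR (4.0.16) on these reads and tested with limma (3.58.1, trend) on log2(normalized count + 1) with genotype as the only term. The smallest p of an exact permutation test with 3 libraries against 3 is 0.1, and no such test was used. Libraries of a genotype differed by more than sampling noise (chi-square per gene 5.33 to 28.8).

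The 7 genes and the gene lists were chosen with earlier results of these data known. All 7 were described in full, 19 pathway genes were to be named whatever their values (1 of them is not reported here), and in other lists at most the 4 largest changes among called genes. Genes singled out for high values in Rnf40+/+ replicate 1, H2-B2, H2-T3-like, H2-T22, H2-T9, H2-Q6, H2-Ab1, Ifng, Ifnb1 and the NF-Y genes were named after their values were seen. Alternatives were other scalings, filters and pseudocounts, DESeq2 (1.42.0), a replicate block, each library left out, other window lengths and joined exons. The quasi-likelihood test of edgeR was added after seeing the data. Shared windows and coding identity came from GENCODE protein-coding transcripts of mm9 (sense strand), with Biopython (1.88) alignments and 1 coding transcript per gene. Promoters came from RefSeq. The scripts were tested on simulated data.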

Additional observations from a re-analysis of the deposited data

How the results depend on the processing

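H2-D1 and Tap1 kept their direction and their call under all 10 alternatives of the fit and with each of the 6 libraries left out (log2 fold changes 0.78 to 0.83 and 0.47 to 0.58 with a library left out), and Rnf40 did so too. Leaving out a library gave ranges of 0.087 to 0.50 for H2-K1, which among these fits was called without Rnf40+/+ replicate 1 alone, and 0.16 to 0.31 for Tapbp. The same gave -0.0087 to 0.22 for H2-T23 (also below 0, at -0.00073, without Rnf40+/+ replicate 3) and -0.12 to 0.042 for Tap2 (above 0 without Rnf40-/- replicate 2), neither of them called. B2m stayed called at -0.28 to -0.23. The smaller sample is part of these losses by construction, and no other cause was tested.

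Scaling by all reads on genes moved the median of all genes to 0.12 and the calls from 3809 higher and 3955 lower to 5197 and 2955. On that scale the log2 fold change was 0.42 for H2-K1, now called (limma adjusted p = 0.0472), 0.066 for Tap2 and -0.12 for B2m, which left 0 members called lower. It also left 0 lower calls among loading genes and among receptors and kinases, 1 each among class I-like, class II, immunoproteasome and peptidase genes, and 2 higher calls among standard subunits.

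No pairing by replicate number was seen, although these values cannot exclude one. Deviations from the genotype means correlated at 0.012, 0.017 and 0.021 between samples with the same number. Between samples with different numbers they correlated at -0.053 to 0.037. The replicate block gave 4021 higher and 4196 lower calls, with H2-K1 called (0.30, limma adjusted p = 0.0212), 5 lower calls among other class I rows, 4 among immunoproteasome and PA28 genes and 1 among class I-like genes, and it changed no call of the other 6 members.

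Lower calls among other class I rows numbered 1, but 4 with the edgeR quasi-likelihood test, 0 with at least 10 reads in every library and 0 to 6 with a library left out, and their higher calls 0 to 1. Immunoproteasome and PA28 genes had 2 lower calls, but 1 with TMM normalization or no filter and 1 to 4 with a library left out. Class I-like genes had 1 lower call with no filter or the Wald test of DESeq2 and 1 to 2 with a library left out, Cd1d1 being the call lost. With at least 10 reads in every library, class II genes had 0 higher and 0 lower calls, as fewer were tested, and endothelial markers had 1 higher call. Epithelial markers had 1 higher call with no filter. With a library left out, lower calls were 0 to 1 among loading genes, 1 to 2 among peptidases and 1 to 2 among class II genes, and higher calls were 2 to 4 among transcription factors, 0 to 1 among standard subunits, 0 to 1 among peptidases and 0 to 1 among fibroblast markers.

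Shared windows depended on the assumed read length. With 36 nucleotides the shares were 18.1% for H2-K1, 27.7% for H2-D1, 26.3% for H2-T23, 1.34% for Tap1, 1.145% for Tap2 and 1.57% for Tapbp, and with 75 nucleotides 1.57%, 7.84%, 6.80%, 0%, 0% and 0%. With joined exons, ranks per kilobase were 4 for H2-K1 and 3 for Tapbp in both genotypes, and 5 for H2-T23 and 6 for Tap1 in Rnf40-/- MEFs.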
